A study of Mus musculus with 4 samples.

Results

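The genes described here are 43 type I interferon stimulated genes, a set that cells switch on when interferon alpha or beta binds its receptor. They were chosen by name from known members of this response, with their values in these groups already seen, and the Ifi200 and guanylate-binding families were left out. The deposited table lists 14718 gene symbols at 7 or 21 days post injury (dpi), and all 43 genes are among them. Of the 43, 42 are listed at 7 dpi, where DHX58 is absent, and 39 at 21 dpi, where STAT2, IRF7, OAS3 and RTP4 are absent, which leaves 38 listed at both time points. A gene without a row has no value here, and this is not a value of 0. Because the choice rests on the same values, every number below describes the genes, and nothing was tested.

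RNA was sequenced from a segment of about 4 mm of spinal cord around a contusion of the thoracic cord, made with a force of 50 kdyne under 3% isoflurane, in male mice of 3 to 5 months. There were 4 groups, ApoE3 and ApoE4 mice at 7 dpi and ApoE3 and ApoE4 mice at 21 dpi, and all were injured, so no uninjured level is part of these comparisons. Both genotypes are targeted replacement mice, in which the mouse Apoe gene is replaced by a human isoform in every cell that would express it, ApoE3 in one genotype and ApoE4 in the other. The comparison of genotypes at each time point asks how the isoform bears on the tissue response to injury. Each group has 1 deposited value per gene in FPKM, fragments scaled to transcript length and sequencing depth, from 3 mice by the methods. No spread between mice can be given from these values, and no difference given here has a replicate check. The authors' own p-values and q-values were not used. Markers of spinal cord were high in all groups, with GFAP of astrocytes lowest in ApoE3 at 21 dpi, with 8201 FPKM, and highest in ApoE4 at 21 dpi, with 15313 FPKM.

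Type I interferons signal through a receptor of 2 chains, IFNAR1 and IFNAR2, and the kinases JAK1 and TYK2. The kinases phosphorylate STAT2, which joins IRF9 in a complex that binds a DNA element called the interferon stimulated response element (ISRE) in front of target genes. The target genes block viruses at many steps, sense foreign nucleic acid, raise the response further through IRF7 and end it through USP18, and in injured nervous tissue microglia and infiltrating macrophages are known sources of such transcripts.

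At 7 dpi the 43 genes leaned to ApoE3, and at 21 dpi they leaned to ApoE4. All 42 genes listed at 7 dpi had a higher FPKM in ApoE3, as did 50.4% of all genes, from IFI27, at 678 FPKM in ApoE3 and 675 in ApoE4, to OASL1, at 19.7 in ApoE3 and 6.64 in ApoE4. The median log2 ratio of FPKM plus 1, ApoE3 to ApoE4, was 0.52 over the 42 genes and 0.00 over all 14125 genes listed. A difference is counted here when it reaches 1.3-fold on that scale, which understates the fold of genes with low FPKM. By this measure 29 of 42 genes were higher in ApoE3 and 0 were higher in ApoE4, against 3.78% and 4.76% of all genes. At 21 dpi the FPKM of all 39 genes listed was lower in ApoE3, as was that of 93.8% of all genes, and their median ratio was −0.63 on the log2 scale, and 36 of 39 were at least 1.3-fold lower and 0 higher.

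The lean at 21 dpi was shared in large measure by the whole table. Of all 11472 genes listed at 21 dpi, 58.9% were at least 1.3-fold higher in ApoE4 and 2.01% at least 1.3-fold higher in ApoE3, and those with a mean FPKM of 1 or more had a median log2 ratio of −0.42. After that median was subtracted, the median of the 39 genes was −0.20, 33 of 39 were below 0, and 10 of 39 were at least 1.3-fold higher in ApoE4, where 8.07% of all genes were, while 0 of 39 were at least 1.3-fold higher in ApoE3, where 7.46% of all genes were. The genes not below 0 after the subtraction were OAS2, DHX58, EIF2AK2, SAMD9L, IFI27L2A and IFI35. At 7 dpi the same subtraction changed none of the counts of these genes, as the median of all genes was close to 0.

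Which genotype each value column holds rests on 1 reading of the table. The name of each comparison puts ApoE3 first, and the values were read in that order, as the study itself reads them, whereas the columns that name the samples put ApoE4 first. If the sample columns were right, every direction between genotypes given here would turn around, and the values would belong to the other genotype. In bulk tissue, fewer cells that express a gene and less of its RNA per cell cannot be told apart.

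**Figure D1:**
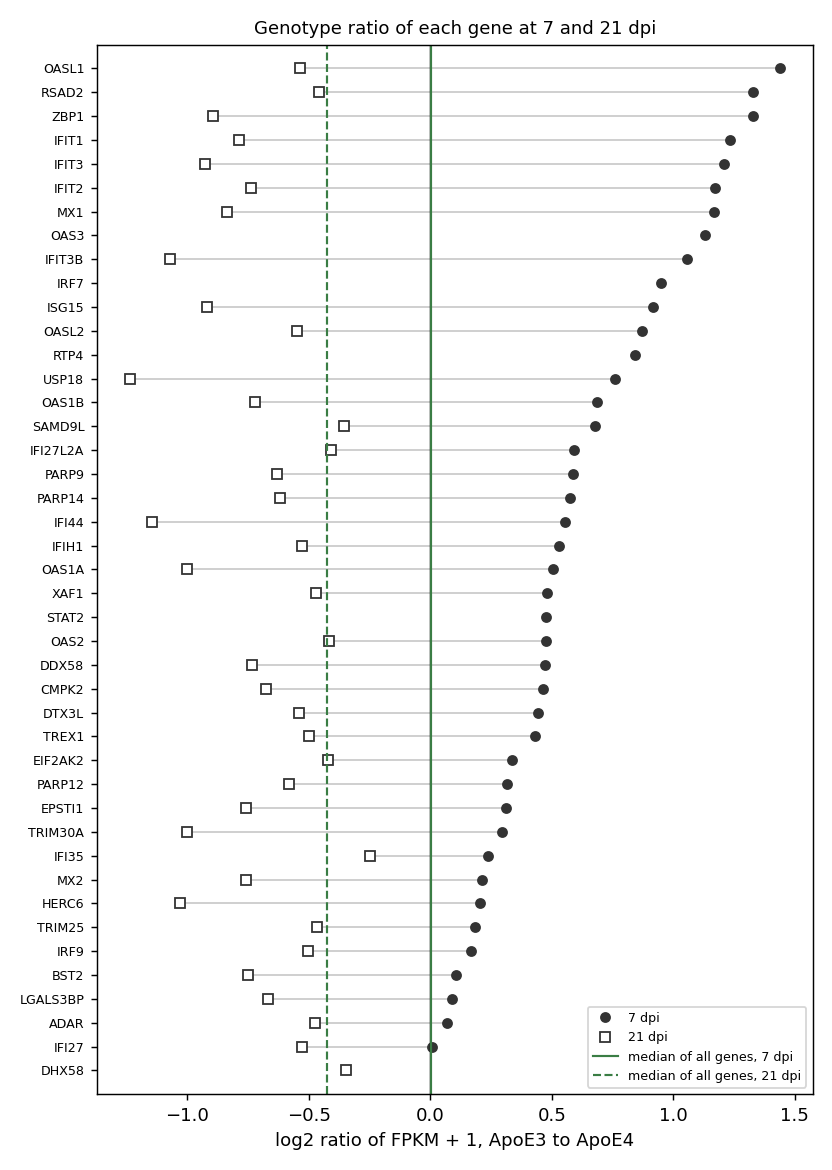
Log2 ratio of FPKM plus 1, ApoE3 to ApoE4, for each of the 43 genes at 7 dpi (filled circles) and 21 dpi (open squares), ordered by the ratio at 7 dpi, with the medians of all genes as green lines. All circles lie right of 0, from 0.01 for IFI27 to 1.44 for OASL1, and all squares lie left of 0, 33 of 39 of them also left of the dashed line, the median of all genes at −0.42.

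Because interferon stimulated genes are known targets of the factor that holds STAT2 and IRF9, their promoters are shown before the single values. RefSeq promoters of GRCm38.p6, from 250 bases before to 50 bases after the transcription start, were matched by symbol for 31 of the 43 genes. The core of the ISRE, GAAANNGAAA, read on either strand, was in the promoter of 13 of 31 genes (41.9%), against 3.99% of the 27025 genes in the promoter table and 3.84% of those listed at 7 dpi. The gamma activated sequence TTCNNNGAA, which reads the same on both strands, was found for 6 of 31 genes (19.4%), against 9.55% of all genes. The motifs were counted separately, and their matches can share bases. A match is a description of the letters, not a site shown to be bound. The lack of an exact match in this window does not show that a gene lacks the element. Windows of 50 bases around the most upstream match are printed for 8 genes whose window lies wholly before the start, from 5′ to 3′ on the strand of the gene, with capitals marking every match to the ISRE core (on the opposite strand it reads TTTCNNTTTC).
ISG15: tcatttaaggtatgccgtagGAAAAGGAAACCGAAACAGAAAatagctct
IFIT1: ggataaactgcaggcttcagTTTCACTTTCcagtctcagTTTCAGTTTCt
IFIT3: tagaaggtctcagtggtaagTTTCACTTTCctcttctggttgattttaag
IFIT3B: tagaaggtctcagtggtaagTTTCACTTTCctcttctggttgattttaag
RSAD2: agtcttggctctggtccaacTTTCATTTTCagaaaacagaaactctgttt
OAS3: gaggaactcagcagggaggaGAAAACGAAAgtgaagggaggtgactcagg
STAT2: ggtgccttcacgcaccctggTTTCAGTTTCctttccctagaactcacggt
BST2: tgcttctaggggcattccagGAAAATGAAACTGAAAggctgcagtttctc

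These windows lie on GRCm38.p6 at chr4:156200867-156200916 (ISG15, minus strand), chr19:34640765-34640814 (IFIT1, plus strand), chr19:34583353-34583402 (IFIT3, plus strand), chr19:34607749-34607798 (IFIT3B, plus strand), chr12:26456543-26456592 (RSAD2, minus strand), chr5:120777705-120777754 (OAS3, minus strand), chr10:128270256-128270305 (STAT2, plus strand) and chr8:71537573-71537622 (BST2, minus strand). In ISG15 3 matches overlap in 1 run, and in BST2 2 do, whereas IFIT1 holds 2 separate matches within the window. The windows of IFIT3 and IFIT3B are the same letter for letter. The 13 genes with the core had log2 ratios at 7 dpi from 0.11 (BST2) to 1.33 (RSAD2) with a median of 0.53, and the 18 genes without it had a median of 0.44, among them OASL1, which had the largest ratio of the 42 genes. The core was also found for 20 of 50 other interferon stimulated genes with a promoter (40.0%). It was in 1 of 13 genes that lead to interferon production (7.69%) and in 0 of 4 receptor and kinase genes. As 3.99% of all genes hold it, most sets of 4 genes would give 0.

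**Figure D2:**
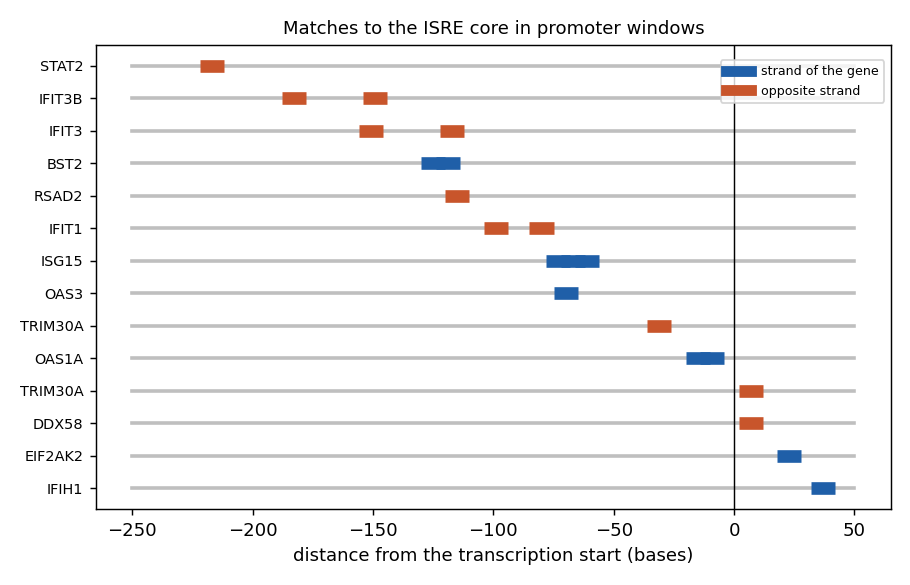
Position of each match to the ISRE core along the promoter window, in bases from the transcription start, for the 13 genes that hold it (TRIM30A has 2 annotated starts). Bars are matches on the strand of the gene (blue) or the opposite strand (orange), and the grey line is the window of 300 bases. The matches run from position −222 in STAT2 to position 41 in IFIH1.

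Where an order of groups across time points is given below, it is that of the deposited values, and 7 and 21 dpi may have been normalized separately. On these values 22 of 38 genes were highest in ApoE3 at 7 dpi and 16 were highest in ApoE4 at 21 dpi, where 8.51% and 73.1% of all genes were, so the count for ApoE4 at 21 dpi lies below the share of all genes. The order of groups changes when each group is scaled.

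Of the transcription factors of the response, only IRF9 is listed at both time points. STAT2, a subunit of the ISRE-binding factor, stood at 17.3 FPKM in ApoE3 and 12.1 FPKM in ApoE4 at 7 dpi. IRF9, its DNA-binding subunit, stood at 49.3 FPKM in ApoE3 and 43.7 FPKM in ApoE4 at 7 dpi, then 37.0 in ApoE3 and 52.8 in ApoE4 at 21 dpi. IRF7, which is induced by interferon and drives further interferon alpha genes, stood at 159 FPKM in ApoE3 and 81.9 FPKM in ApoE4 at 7 dpi. Of these 3, IRF7 had the widest gap between genotypes at 7 dpi, with a log2 ratio of 0.95 against 0.48 for STAT2 and 0.17 for IRF9. IRF9 was highest in ApoE4 at 21 dpi and lowest in ApoE3 at 21 dpi, and its ratio at 21 dpi, −0.50, was near the median of all genes.

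The Ifit genes encode proteins with tetratricopeptide repeats that bind viral RNA and hold back its translation. IFIT1, which binds RNA lacking the cap methylation of the host, was at 17.9 FPKM in ApoE3 and 7.02 FPKM in ApoE4 at 7 dpi, then 9.26 in ApoE3 and 16.7 in ApoE4 at 21 dpi. IFIT2 was at 50.7 FPKM in ApoE3 against 21.9 in ApoE4 at 7 dpi, and 19.4 against 33.0 at 21 dpi. In both genes ApoE3 was the higher genotype at 7 dpi and ApoE4 at 21 dpi. IFIT3, the most abundant of the 4 per transcript length, was measured at 373 FPKM in ApoE3 and 160.4 FPKM in ApoE4 at 7 dpi, then 212 in ApoE3 and 403 in ApoE4 at 21 dpi. IFIT3B, its close copy, was measured at 77.0 FPKM in ApoE3 against 36.4 in ApoE4 at 7 dpi, and 42.9 against 91.3 at 21 dpi. For IFIT3 and IFIT3B the group lowest of all was ApoE4 at 7 dpi and the highest was ApoE4 at 21 dpi. On the log2 scale the 4 genes lay between 1.06 and 1.24 at 7 dpi, the highest median of the 10 groups of genes by role at 1.19, and between −1.07 and −0.74 at 21 dpi, with a median of −0.43 after the median of all genes was subtracted. IFIT3 and IFIT3B share 31.7% and 27.4% of their stretches of 100 bases, the length of a read, with each other, so their separate levels are uncertain.

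The Oas genes make oligoadenylates on double-stranded RNA, which activate the nuclease RNase L, and the Oasl genes are their relatives with ubiquitin-like ends. OAS1A was at 42.5 FPKM in ApoE3 and 29.7 FPKM in ApoE4 at 7 dpi, then 14.7 in ApoE3 and 30.4 in ApoE4 at 21 dpi. OAS1B, which lacks the synthetase activity and is known for resistance to flaviviruses, was at 5.03 FPKM in ApoE3 against 2.74 in ApoE4 at 7 dpi, and 3.24 against 5.99 at 21 dpi. OAS2 was at 19.2 FPKM in ApoE3 against 13.5 in ApoE4 at 7 dpi, and 8.31 against 11.4 at 21 dpi. All 3 were lower in ApoE4 at 7 dpi and lower in ApoE3 at 21 dpi, though OAS2 fell on the other side at 21 dpi once the median of all genes was subtracted (0.01). OAS3, the largest synthetase, was at 4.59 FPKM in ApoE3 and 1.55 FPKM in ApoE4 at 7 dpi. OASL1, which restrains the translation of IRF7, was at 19.7 FPKM in ApoE3 and 6.64 FPKM in ApoE4 at 7 dpi, then 9.86 in ApoE3 and 14.7 in ApoE4 at 21 dpi. OASL2 was at 181 FPKM in ApoE3 against 98.8 in ApoE4 at 7 dpi, and 97.7 against 143 at 21 dpi. The gap of OASL1 at 7 dpi was 2.71-fold on the scale of FPKM plus 1, the largest of the 42 genes, and its ApoE3 level at 7 dpi was the highest of its 4 values. OAS1A shares 40.9% of its stretches of 100 bases with Oas1g, so its level is uncertain too. The 6 genes had a median log2 ratio of 0.78 at 7 dpi, and the 5 listed at 21 dpi had a median of −0.55, or −0.12 after the subtraction.

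The Mx genes encode large GTPases that trap viral nucleocapsids. MX1 was at 16.7 FPKM in ApoE3 and 6.87 FPKM in ApoE4 at 7 dpi, then 3.99 in ApoE3 and 7.90 in ApoE4 at 21 dpi. MX2 was at 9.19 FPKM in ApoE3 against 7.80 in ApoE4 at 7 dpi, and 7.10 against 12.7 at 21 dpi. MX1 was highest by a wide margin in ApoE3 at 7 dpi, with a log2 ratio of 1.17, while MX2 differed little between genotypes at 7 dpi (0.21) and was highest in ApoE4 at 21 dpi. At 21 dpi their ratios were similar, −0.84 for MX1 and −0.76 for MX2.

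Sensors of foreign nucleic acid are both triggers and products of the interferon response. DDX58, the RNA helicase RIG-I, was at 13.4 FPKM in ApoE3 and 9.36 FPKM in ApoE4 at 7 dpi, then 4.74 in ApoE3 and 8.54 in ApoE4 at 21 dpi. IFIH1, the helicase that detects long double-stranded RNA, was at 23.6 FPKM in ApoE3 against 16.0 in ApoE4 at 7 dpi, and 7.28 against 10.9 at 21 dpi. Each was highest in ApoE3 at 7 dpi and lowest in ApoE3 at 21 dpi. DHX58, a helicase that tunes the other two, was at 4.72 FPKM in ApoE3 and 6.28 FPKM in ApoE4 at 21 dpi. ZBP1, a sensor of Z-form nucleic acid that can start necroptosis, was at 34.6 FPKM in ApoE3 and 13.2 FPKM in ApoE4 at 7 dpi, then 9.24 in ApoE3 and 18.0 in ApoE4 at 21 dpi. EIF2AK2, the kinase that stops translation on double-stranded RNA, was at 26.4 FPKM in ApoE3 against 20.7 in ApoE4 at 7 dpi, and 11.8 against 16.1 at 21 dpi. ZBP1 stood out among the 5, at 2.51-fold higher in ApoE3 at 7 dpi and with the largest swing of the 38 genes, 2.22 log2 units, between the ratios at 7 and 21 dpi. The 4 sensors listed at 7 dpi had a median log2 ratio of 0.50, and after the subtraction of the median of all genes the 5 listed at 21 dpi had a median of −0.10, with DHX58 (0.08) and, barely, EIF2AK2 (0.00) not on the side of ApoE4.

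ISG15 is a ubiquitin-like protein that is joined to other proteins and also secreted, and 3 further genes belong to its chemistry. ISG15 was at 33.3 FPKM in ApoE3 and 17.2 FPKM in ApoE4 at 7 dpi, then 18.3 in ApoE3 and 35.5 in ApoE4 at 21 dpi. USP18, which removes ISG15 from its targets and blocks the receptor at IFNAR2, was at 8.14 FPKM in ApoE3 against 4.40 in ApoE4 at 7 dpi, and 3.58 against 9.79 at 21 dpi. Both were highest in ApoE4 at 21 dpi, with ApoE3 at 7 dpi next, and lower in the remaining groups. HERC6, the main ligase for ISG15 in mice, was at 13.0 FPKM in ApoE3 and 11.1 FPKM in ApoE4 at 7 dpi, then 3.87 in ApoE3 and 8.95 in ApoE4 at 21 dpi. TRIM25, a ubiquitin ligase that acts on DDX58, was at 23.9 FPKM in ApoE3 against 20.9 in ApoE4 at 7 dpi, and 7.82 against 11.2 at 21 dpi. HERC6 and TRIM25 differed by less than 1.3-fold between genotypes at 7 dpi and were lowest in ApoE3 at 21 dpi. USP18 had the most negative ratio of the 39 genes at 21 dpi, −1.24, or −0.81 after the subtraction. With HERC6 at −1.03 and ISG15 at −0.92, the 4 genes had the lowest median of the 10 groups of genes by role at 21 dpi, −0.97, or −0.55 after the subtraction.

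ADAR and TREX1 are enzymes that keep the cell's own nucleic acid from setting off the response. ADAR, which edits adenosine in double-stranded RNA, was at 170.2 FPKM in ApoE3 and 162 FPKM in ApoE4 at 7 dpi, then 192 in ApoE3 and 267 in ApoE4 at 21 dpi. TREX1, a DNA exonuclease, was at 46.0 FPKM in ApoE3 against 33.9 in ApoE4 at 7 dpi, and 40.9 against 58.3 at 21 dpi. ADAR was nearly equal between genotypes at 7 dpi, with a log2 ratio of 0.07, and was higher in both genotypes at 21 dpi. TREX1 shares 91.7% of its stretches of 100 bases with transcripts of Atrip, which overlaps it, and ADAR shares 11.8% with Chrnb2, so reads of these genes could have been split or pooled. Apart from these, IFIT3, IFIT3B and OAS1A, HERC6 shares 10.3% of its stretches and RTP4 9.28% with predicted transcripts, PARP9 shares 5.57% with DTX3L, and the rest share less, 0 in most.

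The Parp group attaches ADP-ribose to proteins, and PARP9 works in a complex with the ubiquitin ligase DTX3L. PARP9 was at 46.4 FPKM in ApoE3 and 30.5 FPKM in ApoE4 at 7 dpi, then 16.3 in ApoE3 and 25.8 in ApoE4 at 21 dpi. DTX3L was at 7.37 FPKM in ApoE3 against 5.15 in ApoE4 at 7 dpi, and 2.28 against 3.76 at 21 dpi. Their log2 ratios were close to each other at 7 dpi, 0.59 and 0.44, and at 21 dpi, −0.63 and −0.54. PARP12, which is antiviral, was at 17.6 FPKM in ApoE3 and 13.9 FPKM in ApoE4 at 7 dpi, then 10.7 in ApoE3 and 16.5 in ApoE4 at 21 dpi. PARP14 was at 35.4 FPKM in ApoE3 against 23.5 in ApoE4 at 7 dpi, and 10.1 against 16.1 at 21 dpi. PARP14 dropped furthest of the 4 between time points in ApoE3, by a log2 ratio of −1.71, and it was lower at 21 dpi in ApoE4 as well. All 4 genes were at least 1.3-fold higher in ApoE4 at 21 dpi, where 58.9% of all genes were. After the subtraction 0 of 4 were, where 8.07% of all genes were, so most sets of 4 genes would give that count. Their median was −0.60 before the subtraction and −0.18 after it.

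Further antiviral effectors act on viral replication and release. RSAD2, the radical SAM enzyme viperin, was at 10.3 FPKM in ApoE3 and 3.50 FPKM in ApoE4 at 7 dpi, then 2.97 in ApoE3 and 4.44 in ApoE4 at 21 dpi. CMPK2, its neighbour in the genome and a nucleotide kinase that feeds it substrate, was at 43.2 FPKM in ApoE3 against 31.0 in ApoE4 at 7 dpi, and 28.2 against 45.7 at 21 dpi. RSAD2 was 2.51-fold higher in ApoE3 than in ApoE4 at 7 dpi on the scale of FPKM plus 1, and CMPK2 1.38-fold. BST2, or tetherin, which holds budding virus at the membrane, was at 102 FPKM in ApoE3 and 95.1 FPKM in ApoE4 at 7 dpi, then 54.4 in ApoE3 and 92.2 in ApoE4 at 21 dpi. SAMD9L, which restricts poxviruses, was at 16.3 FPKM in ApoE3 against 9.82 in ApoE4 at 7 dpi, and 5.14 against 6.84 at 21 dpi. BST2 was similar in 3 groups and lower in ApoE3 at 21 dpi, while SAMD9L was lower in both genotypes at 21 dpi than at 7 dpi. TRIM30A, a tripartite motif protein, was at 25.1 FPKM in ApoE3 against 20.2 in ApoE4 at 7 dpi, and 7.07 against 15.2 at 21 dpi. RTP4 was at 129 FPKM in ApoE3 and 71.7 FPKM in ApoE4 at 7 dpi. The 6 genes had a median log2 ratio of 0.57 at 7 dpi, and the 5 listed at 21 dpi had a median of −0.68, or −0.25 after the subtraction, where SAMD9L lay on the side of ApoE3 (0.07).

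A last group of 7 genes is induced by interferon, with functions that are less settled. IFI27 was at 678 FPKM in ApoE3 and 675 FPKM in ApoE4 at 7 dpi, then 878 in ApoE3 and 1265 in ApoE4 at 21 dpi. IFI27L2A, its neighbour and relative, was at 97.6 FPKM in ApoE3 against 64.5 in ApoE4 at 7 dpi, and 76.9 against 102 at 21 dpi. IFI27 was the most abundant of the 43 genes per transcript length and hardly differed between genotypes at 7 dpi, while IFI27L2A was lowest in ApoE4 at 7 dpi. IFI35 was at 8.46 FPKM in ApoE3 and 7.03 FPKM in ApoE4 at 7 dpi, then 7.22 in ApoE3 and 8.75 in ApoE4 at 21 dpi. IFI44 was at 11.0 FPKM in ApoE3 against 7.18 in ApoE4 at 7 dpi, and 5.28 against 12.9 at 21 dpi. XAF1, which promotes cell death, was at 132 FPKM in ApoE3 against 94.7 in ApoE4 at 7 dpi, and 121 against 168 at 21 dpi. IFI44 was among the most negative at 21 dpi, with a log2 ratio of −1.14, and IFI35 was the least negative at −0.25 and lay on the side of ApoE3 after the subtraction. EPSTI1 was at 13.6 FPKM in ApoE3 and 10.7 FPKM in ApoE4 at 7 dpi, then 5.93 in ApoE3 and 10.7 in ApoE4 at 21 dpi. LGALS3BP, a secreted glycoprotein that binds galectins, was at 175 FPKM in ApoE3 against 164 in ApoE4 at 7 dpi, and 146 against 232 at 21 dpi. Among the groups of genes with more than 2 members, these had the lowest median ratio at 7 dpi, 0.31. At that time point 3 of 7 were at least 1.3-fold higher in ApoE3, where 3.78% of all genes were.

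**Figure D3:**
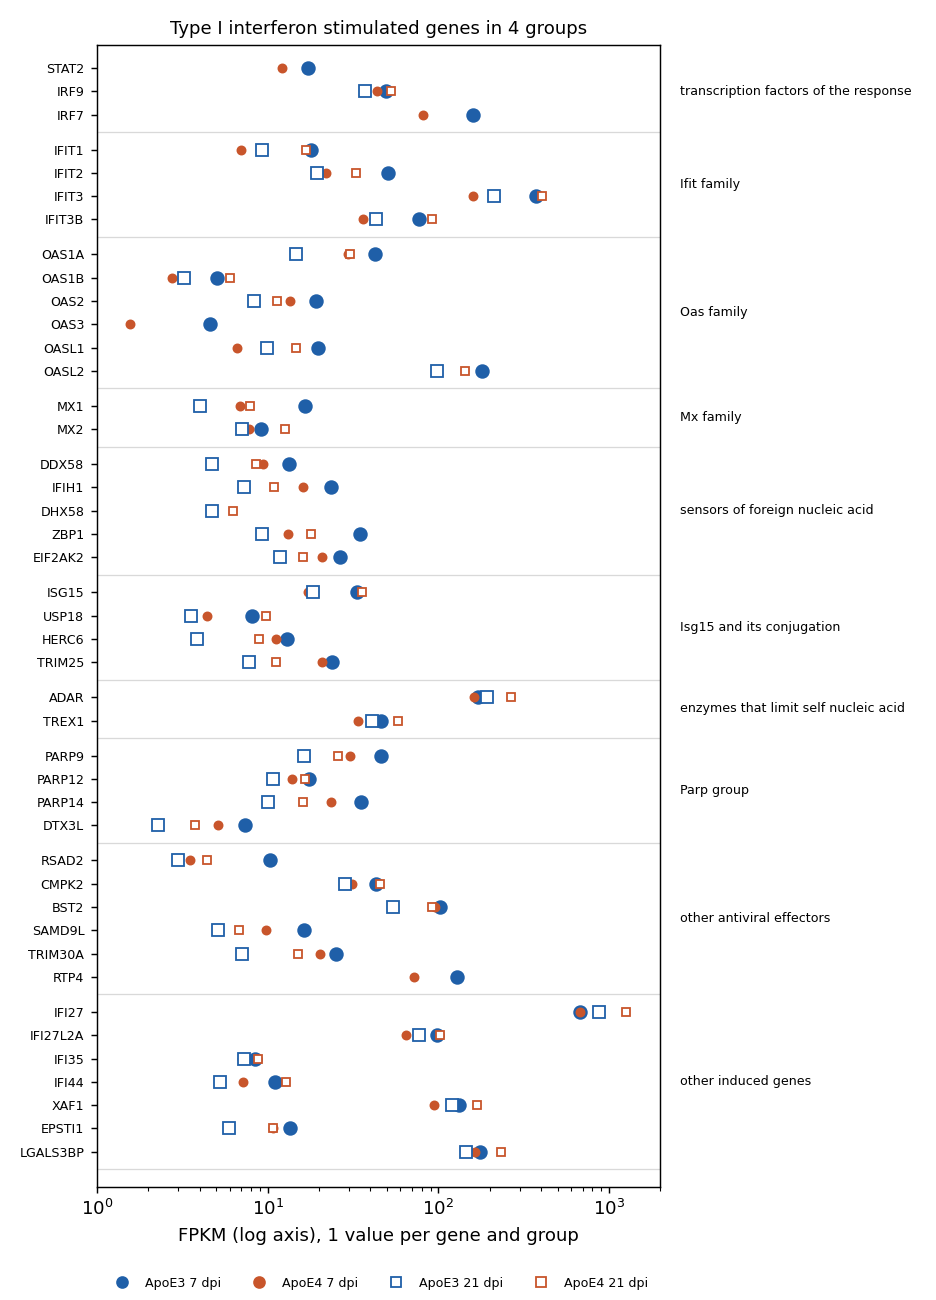
FPKM of the 43 genes on a log axis, 1 value per gene and group, arranged by role, with ApoE3 in blue and ApoE4 in orange, 7 dpi as filled circles and 21 dpi as open squares. The filled blue circle lies right of the filled orange circle in all 42 genes listed at 7 dpi, and the open blue square lies left of the open orange square in all 39 genes listed at 21 dpi.

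The gap at 7 dpi was of similar size at low and high levels of the genes. In the 14 genes with the lowest mean FPKM at 7 dpi the median log2 ratio was 0.62, in the middle 14 it was 0.49 and in the highest 14 it was 0.53. Genes with large and small gaps also sat next to each other in the genome. RefSeq places IFIT2, IFIT3, IFIT3B and IFIT1 within 6 protein-coding genes on chromosome 19, all with ratios over 1, whereas RSAD2 (1.33) and CMPK2 (0.46) are neighbours on chromosome 12 with different gaps. On chromosome 5 OASL1 (1.44) adjoins OASL2 (0.87), OAS3 (1.13) adjoins OAS2 (0.48) and OAS1B (0.69) adjoins OAS1A (0.50). PARP14, DTX3L and PARP9 follow each other on chromosome 16, with ratios from 0.44 to 0.59. Of the 43 genes, 41 were matched in the RefSeq table.

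Changes over time are given for each genotype in turn, and the difference between genotypes was not tested. The median FPKM of the 38 genes listed at both time points was 25.7 in ApoE3 and 18.7 in ApoE4 at 7 dpi, and 9.98 in ApoE3 and 16.3 in ApoE4 at 21 dpi. The values at 7 and 21 dpi stand in separate rows of the table and may have been normalized separately, so levels across time are given with that limit. In ApoE3, 30 of 38 genes were at least 1.3-fold lower at 21 dpi and 0 of 38 higher, against 23.6% and 31.3% of the 10879 genes listed at both time points. Their median log2 ratio of 21 to 7 dpi was −0.93, and after the median of all genes was subtracted it was −1.02, with 32 of 38 genes at least 1.3-fold lower and 0 of 38 higher, against 27.7% and 26.6% of all genes. MX1 (−1.82) and ZBP1 (−1.80) fell the most, and IFI27 (0.37) and ADAR (0.17) were the 2 genes that did not fall.

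In ApoE4 the direction depended on the scaling. As deposited, 19 of 38 genes were at least 1.3-fold higher at 21 dpi and 5 of 38 lower, against 59.0% and 10.9% of all genes, with a median log2 ratio of 0.35. The median of all genes in this comparison was 0.53, and after it was subtracted the median of the 38 genes became −0.17 and 14 of 38 were at least 1.3-fold lower and 7 of 38 higher, where 28.6% and 26.1% of all genes were. The Ifit genes were on the higher side either way, with a median of 1.22 as deposited and 0.70 after the subtraction. The Parp group was on the lower side either way, with medians of −0.30 and −0.83, although PARP12 alone was at 0.23 as deposited. TRIM25 fell the most in ApoE4, with a log2 ratio of −0.85.

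Across the 4 groups, 22 of the 38 genes were highest in ApoE3 at 7 dpi and 16 were highest in ApoE4 at 21 dpi, where 8.51% and 73.1% of all genes were highest. Of the same 38, 26 were lowest in ApoE3 at 21 dpi and 12 were lowest in ApoE4 at 7 dpi, where 38.0% and 33.9% of all genes were lowest. After each group was scaled by the median deviation of its genes, 36 of 38 were highest in ApoE3 at 7 dpi, where 19.9% of all genes were, and ADAR and IFI27 were highest in ApoE4 at 21 dpi. The lowest group after scaling was ApoE3 at 21 dpi for 24 genes, ApoE4 at 7 dpi for 9, ApoE4 at 21 dpi for 4 and ApoE3 at 7 dpi for IFI27 alone, where 28.2%, 27.4%, 23.2% and 21.2% of all genes were lowest. The level in ApoE3 at 7 dpi stood above the other groups for nearly all 38 genes on the scaled values, and for 22 on the deposited ones. The gene ratio at 7 dpi minus that at 21 dpi had a median of 1.17 in the 38 genes and 0.43 over all genes, and it ran from 0.48 for IFI35 to 2.22 for ZBP1. All 38 genes were higher in ApoE3 at 7 dpi and lower at 21 dpi, as were 49.0% of all genes, and after the medians of all genes were subtracted 33 of 38 were, against 26.1%. These counts go by sign alone. By at least 1.3-fold at both time points, 24 of 38 were as deposited and 8 of 38 after the subtraction, and the share of all genes was not counted. The difference between time points was not tested.

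**Figure D4:**
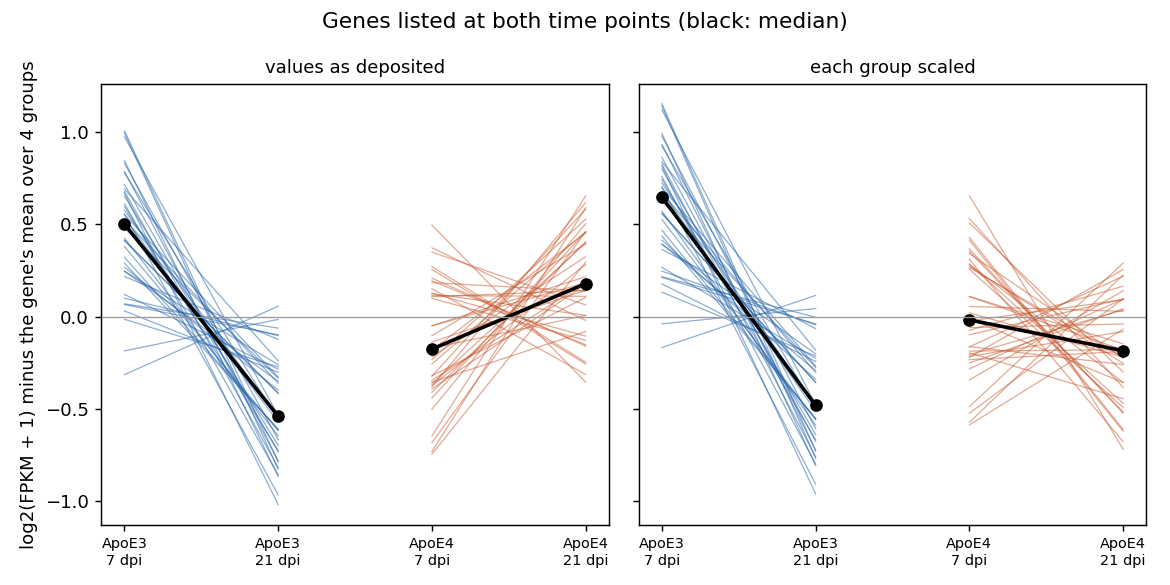
Log2 of FPKM plus 1 minus the mean of each gene over the 4 groups, for 38 genes listed at both time points, as deposited (left) and after each group was scaled (right). Thin lines join 7 and 21 dpi of 1 gene in ApoE3 (blue) and ApoE4 (orange), and black points are medians. On the scaled values the medians were 0.65 in ApoE3 and −0.02 in ApoE4 at 7 dpi, and −0.48 and −0.19 at 21 dpi.

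At 7 dpi the genes upstream of the response that are given here did not show the same lean, while at 21 dpi those listed were all lower in ApoE3, like most of the table. None of 20 genes for type I and type III interferons, IFNB1 and the alpha genes among them, is listed, and this does not give a level of 0. IFNAR1, a chain of the receptor, was at 36.4 FPKM in ApoE3 and 45.5 FPKM in ApoE4 at 7 dpi, then 21.2 in ApoE3 and 26.2 in ApoE4 at 21 dpi. IFNAR2, the other chain, was at 82.3 FPKM in ApoE3 against 106 in ApoE4 at 7 dpi, and 58.7 against 76.3 at 21 dpi. Both chains were lower in ApoE3 at each time point, the reverse of the response genes at 7 dpi, though after the median of all genes was subtracted both lay on the side of ApoE3 at 21 dpi (0.13 for IFNAR1 and 0.05 for IFNAR2). JAK1, a receptor kinase, was at 307 FPKM in ApoE3 against 294 in ApoE4 at 7 dpi, and 217 against 314 at 21 dpi. TYK2, its partner, was at 83.5 FPKM in ApoE3 and 91.4 FPKM in ApoE4 at 7 dpi and is not listed at 21 dpi. The median of these 4 genes at 7 dpi was −0.22 on the log2 scale. By at least 1.3-fold 0 of 4 differed, where 3.78% of all genes were higher in ApoE3 and 4.76% lower, so most sets of 4 genes would give that count.

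The list of genes that lead to interferon production held 16 genes listed at 7 dpi, of which 12 were lower in ApoE3, and their median log2 ratio was −0.17. Where a gene of this list is given with 2 values, these are its FPKM at 7 dpi, ApoE3 before ApoE4. Among the factors that switch on interferon genes, IRF3 was at 161 FPKM in ApoE3 and 182 FPKM in ApoE4 at 7 dpi, IRF5 at 182 and 217, and IRF8 at 61.3 and 70.9, each lower in ApoE3. The kinases TBK1 (19.1 and 23.0) and IKBKE (75.8 and 93.9), which activate IRF3, were lower in ApoE3 too. Of the DNA-sensing pair, CGAS was at 2.59 FPKM in ApoE3 and 2.78 in ApoE4, and TMEM173, or STING, at 78.4 and 88.6. The adaptors MAVS (37.6 and 38.6), MYD88 (13.4 and 15.3) and TICAM1 (6.57 and 7.51) lay slightly lower in ApoE3, and TRAF3 (111 and 102) slightly higher. These are small gaps, all under 1.3-fold. Among the Toll-like receptors of the endosome, TLR3 stood at 105 FPKM in ApoE3 and 79.0 in ApoE4, TLR7 at 153 and 140.3, TLR8 at 30.9 and 35.9 and TLR9 at 4.89 and 4.56, and UNC93B1, which carries them there, at 273 and 330.1. TLR3, which is also interferon stimulated, was the only 1 of the 16 to reach 1.3-fold, higher in ApoE3 with a log2 ratio of 0.40, and 1 of 16 is near the 3.78% of all genes that were higher by that fold. At 21 dpi the 12 genes listed had a median of −0.55, or −0.13 after the median of all genes was subtracted, not far from that of the 39 response genes.

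Negative regulators and nucleic acid enzymes that temper the response lay on both sides of 0 at 7 dpi, with 5 of the 9 listed higher in ApoE3 and 4 lower. SOCS3 was at 36.8 FPKM in ApoE3 and 48.2 FPKM in ApoE4 at 7 dpi and SOCS1 at 1.88 and 2.17, both lower in ApoE3, and SOCS3 was the only 1 of the 9 that was at least 1.3-fold lower. PTPN6, a phosphatase of the receptor complex, stood at 99.5 FPKM in ApoE3 and 124 in ApoE4, and PIAS1, an inhibitor of activated STAT proteins, at 24.4 and 21.5. The enzymes ISG20 (32.7 FPKM in ApoE3 and 23.6 in ApoE4) and SAMHD1 (77.6 and 61.7), which are interferon stimulated themselves, were higher in ApoE3. Of the RNase H2 subunits, RNASEH2A was at 122 and 106, RNASEH2B at 2.05 and 2.26 and RNASEH2C at 11.4 and 10.2. ISG20 was the only gene of this list at least 1.3-fold higher in ApoE3, with a log2 ratio of 0.46, and the median of the 9 was 0.15. These counts of 1 higher and 1 lower are not far from the 3.78% and 4.76% of all genes. Of 10 genes of the type II interferon axis, 6 are listed at 7 dpi with a median of −0.13, IFNG is not among them, and CXCL9, chosen after its values were seen and at 1.40 FPKM in ApoE3 and 0.484 FPKM in ApoE4 at 7 dpi, was the only 1 higher in ApoE3.

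Other interferon stimulated genes outside the 43 leaned the same way at 7 dpi, by less. Of 58 such genes 54 are listed at 7 dpi, and 44 of these were higher in ApoE3, as were 50.4% of all genes. By at least 1.3-fold 18 of 54 were higher and 0 lower, where 3.78% and 4.76% of all genes were, and the median of the 54 was 0.17 on the log2 scale. This list was also drawn up with earlier results of these data known, and TLR3 and ISG20 stand in it as well. LY6E, a membrane protein and the most abundant of them, was at 1996 FPKM in ApoE3 and 1844 FPKM in ApoE4 at 7 dpi, then 1762 in ApoE3 and 2643 in ApoE4 at 21 dpi. LY6A, also known as Sca-1, was at 269 FPKM in ApoE3 against 262 in ApoE4 at 7 dpi, and 442 against 537 at 21 dpi. Their log2 ratios at 7 dpi were 0.11 and 0.04, and those of the next in abundance were −0.07 for AZI2, 0.17 for TDRD7 and 0.07 for TOR1AIP1. CXCL10, a chemokine for T cells that was chosen after its values were seen, was at 34.2 FPKM in ApoE3 and 13.0 FPKM in ApoE4 at 7 dpi, then 14.8 in ApoE3 and 23.9 in ApoE4 at 21 dpi. Its log2 ratio of 1.33 at 7 dpi was close to those of RSAD2 and ZBP1. At 21 dpi the 44 listed genes had a median of −0.54, or −0.12 after the subtraction, with 30 of 44 at least 1.3-fold lower in ApoE3, where 58.9% of all genes were. After the subtraction 4 of 44 were lower and 3 higher by that fold, where 8.07% and 7.46% of all genes were.

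**Figure D5:**
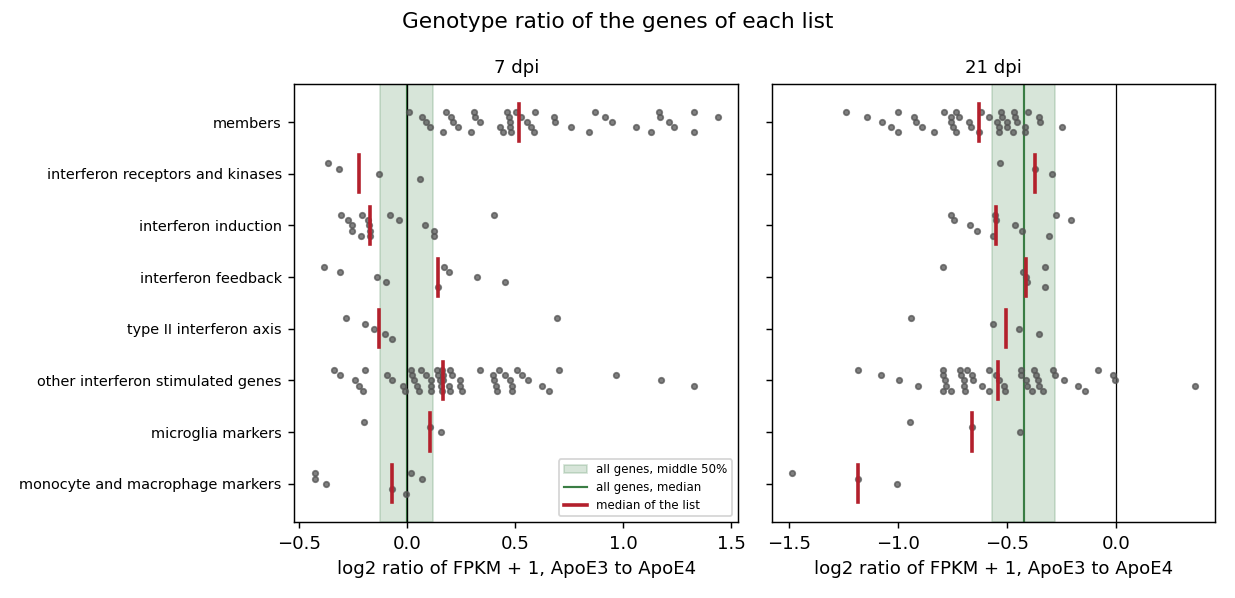
Log2 ratio of FPKM plus 1, ApoE3 to ApoE4, at 7 dpi (left) and 21 dpi (right), with 1 point per gene for each list, the median of the list in red and the median and middle 50% of all genes in green. At 7 dpi the 42 response genes have a median of 0.52, against −0.22 for receptors and kinases and −0.17 for genes that lead to interferon production.

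Markers of the cells that could carry the response were measured beside it. Of 7 markers of monocytes and macrophages all are listed at 7 dpi, and their summed FPKM was 6166 in ApoE3 and 8167 in ApoE4, led by LYZ2 with 4522 and 6076. Here 2 of 7, LYZ2 and MS4A7, were at least 1.3-fold lower in ApoE3, where 4.76% of all genes were, and CD68, second to LYZ2 in abundance, was lower by slightly less, with 1309 FPKM in ApoE3 and 1696 FPKM in ApoE4 and a log2 ratio of −0.37. The other 4 have lower FPKM and small gaps. In ApoE3 LY6C2 and CCR2 were slightly lower, and ADGRE1 and MRC1, the latter at 2.02 and 1.88, were slightly higher. In all, 5 of 7 were lower in ApoE3, and the median of the 7 was −0.07. Of 5 microglial markers 3 are listed at 7 dpi, with P2RY12 and CX3CR1 without a row, and their sum was 232 in ApoE3 and 229.9 in ApoE4, led by SIGLECH, with SIGLECH and SALL1 higher and TMEM119 lower in ApoE3. At 21 dpi MS4A7, LYZ2 and ADGRE1 were the macrophage markers listed, with a sum of 232 in ApoE3 and 480.0 in ApoE4, against 4805 and 6417 for the same 3 genes at 7 dpi. LYZ2 was at 212 and 426 there. All 3 markers were lower at 21 dpi than at 7 dpi in both genotypes, as deposited and after the median of all genes was subtracted.

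At 21 dpi the microglial markers TMEM119, SIGLECH and SALL1 had a sum of 205 in ApoE3 and 360.4 in ApoE4, with SIGLECH the highest. Neutrophil markers, led by CSF3R, summed over the 4 genes listed at both time points to 534 in ApoE3 and 619 in ApoE4 at 7 dpi and to 335 and 511 at 21 dpi, with LY6G not listed at all and MMP8 at 7 dpi only. CSF3R made up most of the sum at 7 dpi, with 485 FPKM in ApoE3 and 589 FPKM in ApoE4. Against that sum S100A8, S100A9 and LCN2, chosen after their values were seen, were higher in ApoE3 at 7 dpi, with LCN2 at 29.4 FPKM in ApoE3 and 18.1 FPKM in ApoE4. Of the 5 neutrophil markers listed at 7 dpi, 3 were at least 1.3-fold higher in ApoE3 and 1 lower, where 3.78% and 4.76% of all genes were. Their median log2 ratio was 0.53. Of the markers of plasmacytoid dendritic cells, which are known for high interferon output, 4 of 6 are listed at 7 dpi with a sum of 509.7 in ApoE3 and 429.7 in ApoE4 and 2 at 21 dpi with 177 and 329, but BST2 is also among the 43 genes, SIGLECH is also microglial and PACSIN1, the highest at 7 dpi, is also neuronal. No T or NK cell marker is listed at 7 dpi, NKG7 is the only 1 at 21 dpi, and CD79B is the only B cell marker listed, at 2.46 FPKM in ApoE3 and 3.28 FPKM in ApoE4 at 7 dpi. All 6 neuronal markers were higher in ApoE3 at 7 dpi, as were 50.4% of all genes, with a sum of 5237 against 4099, led by SNAP25. Their median log2 ratio was 0.26. Only SNAP25 (0.40) was at least 1.3-fold higher, where 3.78% of all genes were. The 5 listed at both time points summed to 4399.6 in ApoE3 and 3402 in ApoE4 at 7 dpi. At 21 dpi all 5 were lower in ApoE3, with 7245 against 10444, as were 93.8% of all genes. After the median of all genes was subtracted, 3 of the 5 were lower in ApoE3 and 2 higher, with a median of −0.03. Astrocyte markers summed to 15339 in ApoE3 and 15042 in ApoE4 at 7 dpi and to 9216 and 17063 at 21 dpi, led by GFAP. Oligodendrocyte markers, led by MBP, summed over the 3 genes listed at both time points to 126687 in ApoE3 and 133853 in ApoE4 at 7 dpi and to 209780 and 291010 at 21 dpi. Endothelial markers, led by FLT1, summed over the 3 of 4 genes listed at both time points to 168 in ApoE3 and 166 in ApoE4 at 7 dpi and to 188 and 238 at 21 dpi. At 21 dpi CDH5 was higher in ApoE3 as deposited, and after the subtraction all 3 lay on the side of ApoE3, with a median of 0.08. The centred medians of macrophage (−0.76), microglial (−0.24), neutrophil (−0.34), astrocyte (−0.24) and oligodendrocyte (−0.12) markers listed at 21 dpi lay on the side of ApoE4. The share of these cells in the values of the response genes was not tested.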

How the data were processed

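RNA was sequenced as single-end reads of 100 nt from unstranded TruSeq libraries of 3 male mice per genotype and time point, and the authors down-sampled all libraries to the depth of the smallest. The submitters' processing notes name STAR 2.5.4b, bowtie2, samtools 0.1.7 and cuffdiff 1.3.0. The genome build and annotation are not given in the sources used here, and the methods mention 1 library with a lower alignment rate without naming its group. The deposited values are, per gene and group, FPKM to which the authors added 1, and 1 was subtracted from each value here. The table's own columns of fold change, log2 fold change, p-value, q-value and significance, and a second table of differentially expressed genes, hold the authors' comparisons and were not used. Every value column had a group. Genotypes were read from the comparison names, which the sample columns contradict for both genotypes at both time points. Read counts per gene are not known, so no counting error is given.

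Ratios were log2 of FPKM plus a pseudocount of 1, and 1.3-fold, the minimum fold of the study's methods, was the call. Centred values had the median of genes whose mean FPKM was 1 or more subtracted. At each time point 2 symbols stood on 2 rows, of which the first was kept. The members, roles, pathway lists and marker lists were chosen with earlier results of these data known. Some genes of the lists are not reported here and were left out of the counts, medians and sums of their lists after their values were seen. The genes named are all members, the listed genes of the receptor, induction and feedback lists, and the 5 most abundant other interferon stimulated genes at 7 dpi, besides those said to be picked later. Promoters and gene order came from RefSeq (GRCm38.p6), matched by symbol, and shared stretches from GENCODE vM21 transcripts. Alternatives were pseudocounts of 0.1 and 0.01, a mean FPKM of at least 1, centring, folds of 1.5 and 2, and leaving out paralog families. Members listed at both time points, the opposite genotype reading and the scaling of groups were added after the data were seen. So were the counts of members highest in each group. Python 3.11.15, numpy 2.4.6, pandas 2.3.3 and matplotlib 3.10.9 were used, and the ratio and call steps were tested on simulated data.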

Additional observations from a re-analysis of the deposited data

Results flagged for a closer look

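The genotype difference had opposite directions at the 2 time points. Over the 38 genes listed at both, the median log2 ratio of FPKM plus 1, ApoE3 to ApoE4, was 0.49 at 7 dpi and −0.65 at 21 dpi. The median of all genes was −0.42 at 21 dpi, and once it was subtracted the 39 genes listed there had a median of −0.20, so most of the value at 21 dpi was shared by the whole table. Each genotype has 1 value per gene and time point, so the difference between time points was not tested.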

How the results depend on the processing

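The pseudocount and the filter on mean FPKM left the counts within 1.5 times those given and no direction turned. The median log2 ratios were 0.54 at 7 dpi and −0.67 at 21 dpi between genotypes, and −1.02 in ApoE3 and 0.39 in ApoE4 between time points with a pseudocount of 0.1. They were 0.54 at 7 dpi and −0.67 at 21 dpi between genotypes, and −1.03 in ApoE3 and 0.40 in ApoE4 between time points with 0.01. A minimum mean FPKM of 1 was met by every member and changed no value. Subtraction of the median of all genes lowered the count of members lower in ApoE3 at 21 dpi from 36 to 10. The share of all genes fell with it, from 58.9% to 8.07%. The median at 21 dpi became −0.20, that of 21 to 7 dpi became −1.02 in ApoE3, and in ApoE4 it turned from 0.35 to −0.17. The cause of the shift between all genes was not tested. At a fold of 1.5 the counts were 18 at 7 dpi and 21 at 21 dpi, where 1.22% and 23.0% of all genes passed, and at a fold of 2 they were 9 and 5, where 0.340% and 3.77% did. Without the Ifit, Oas, Mx, Ifi27 and Trim30 families, 17 of 27 members passed 1.3-fold at 7 dpi and 22 of 25 passed it at 21 dpi, where 3.78% and 58.9% of all genes did, with medians of 0.47 at 7 dpi and −0.58 at 21 dpi between genotypes, and −1.03 in ApoE3 and 0.25 in ApoE4 between time points, and 14 members were highest in ApoE3 at 7 dpi and 10 were highest in ApoE4 at 21 dpi. Fewer genes are in these counts, and the medians between genotypes were also smaller in size than the 0.52 and −0.63 of all listed members. A further 3 choices were made after the data were seen, as were the counts of members highest in each group under every setting. Over members listed at both time points the genotype medians were 0.49 at 7 dpi and −0.65 at 21 dpi. After each group was scaled, 36 members were highest in ApoE3 at 7 dpi and 2 were highest in ApoE4 at 21 dpi, in place of 22 and 16. With genotypes read from the sample columns, 0 members were higher in ApoE3 at 7 dpi and 0 lower at 21 dpi, 0 were highest in ApoE3 at 7 dpi and 0 were highest in ApoE4 at 21 dpi, and the medians were −0.52 at 7 dpi and 0.63 at 21 dpi between genotypes, and 0.35 in ApoE3 and −0.93 in ApoE4 between time points. No paired analysis was possible because the table holds 1 value per gene and group. Read depth per gene is unknown, so the precision of low FPKM values cannot be given.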
